A study of Rattus norvegicus with 8 samples.

Results

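The complement and coagulation genes described here are plasma protein genes of the liver, chosen as a given list of 38 gene symbols, and a gene counts as a member where the symbol of its row in the deposited count table is on that list. Of the 38 listed genes, 36 had a row among the 30562 genes of the table, 17 of the complement system and 19 of coagulation and fibrinolysis. C2 and Mbl2 were not analysed here. Complement is a chain of proteases that marks targets with fragments of C3 and ends in a pore of terminal components. Coagulation is a chain of proteases that ends in thrombin, which turns fibrinogen into fibrin. Hepatocytes make most of the soluble proteins of both systems, together with the inhibitors that hold them in check.

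RNA was sequenced from the livers of 8 rats, 2 in each of 4 groups, out of 20 animals with 5 per group. The labels call every animal a male Wistar rat, of 160 g at the start. The Atorvastatin plus HCB group received both agents. The HCB group received hexachlorobenzene, a chlorinated fungicide and persistent pollutant, by gavage at 100 mg/kg 3 times per week for 30 days. The Atorvastatin group received this statin, an inhibitor of cholesterol synthesis, with the drinking water, at a dose given as 5 mg/kg per day, although the recipe in the same labels amounts to another dose. The Control group received vehicle, and all animals were killed on day 37. In the following, the 4 libraries labelled Atorvastatin plus HCB or HCB are called HCB-labelled and the 4 labelled Atorvastatin or Control are called unexposed.

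The libraries went against their labels in a way that touches every HCB comparison. The summed level of the Y-linked genes was 135.6 to 217.6 CPM (counts per 1e6 reads after TMM scaling) in the HCB-labelled libraries and 1.99 to 4.04 CPM in the unexposed libraries, although all animals are labelled male. The summed fetal liver markers stood at 148.5 to 332.7 CPM in the HCB-labelled and 37450.0 to 51250.0 CPM in the unexposed libraries, with 5 of 5 lower. Neutrophil markers summed to 0.652 to 3.74 CPM against 134.6 to 225.8 CPM, with Ltf at 0 in both. Erythroid markers summed to 235.0 to 264.5 CPM in the HCB-labelled and 384.6 to 936.4 CPM in the unexposed libraries, with 7 of 8 lower, and stellate cell and fibroblast markers to 419.6 to 582.1 CPM in the HCB-labelled and 628.2 to 2854 CPM in the unexposed libraries, with 1 of 8 higher and 4 lower. Hepatocyte markers summed to 100700.0 to 143600.0 CPM in the HCB-labelled and 54000.0 to 116100.0 CPM in the unexposed libraries, where 5 of 8 were higher and 1 was lower. An effect of HCB on the genes below cannot be told apart from these differences, and the part that any of them has in a result was not tested. Assigned reads were 51.4 and 51.98 M (units of 1e6 reads) in the Atorvastatin plus HCB libraries, 38.4 and 42.1 M in HCB, 29.4 and 43.8 M in Atorvastatin and 30.2 and 41.9 M in Control. Reads in no annotated exon made up 7.46% to 11.4% of the HCB-labelled and 15.3% to 34.04% of the unexposed libraries, with the highest shares in replicate 1 of Atorvastatin and of Control.

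Complement genes, factor IX and protein S were higher in the HCB-labelled than in the unexposed libraries, whereas fibrinogen and most other clotting factors did not pass the test. Of the 36 genes, 17 were higher and 1 was lower (edgeR adjusted p under 0.05). Of all 16591 genes tested, 21.3% were higher and 25.3% were lower in the same comparison, 46.6% in either direction. The median log2 fold change was 0.62 over the 36 genes and −0.11 over all genes tested. In bulk tissue, fewer cells of a type and less RNA per cell cannot be told apart. Among the complement genes 13 of 17 were higher, and among the coagulation and fibrinolysis genes 4 of 19 were higher and 1 was lower. DESeq2 called 23 genes higher and 2 lower, adding Masp1 and Cfb of complement, F12, Serpinc1, Plg and Cpb2 of coagulation and fibrinolysis, and F5 as lower. Over all 16591 genes tested DESeq2 called 8040 in either direction, 46.53% of these higher. In TMM-scaled CPM all 4 HCB-labelled libraries lay above all 4 unexposed ones for 21 genes and below them for 1 gene, and 14 genes overlapped. Among all genes tested, 21.8% lay above, 25% below and 46.8% apart in either direction.

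**Figure D1:**
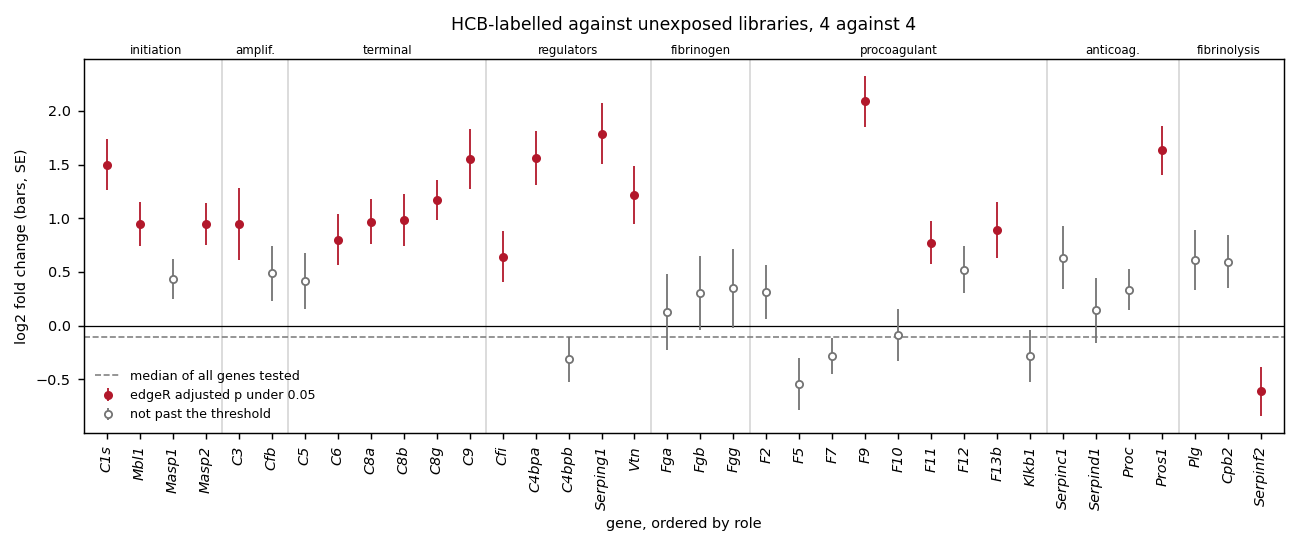
Log2 fold change of each gene between the 4 HCB-labelled and the 4 unexposed libraries, on the y axis with bars of 1 SE, with genes ordered by role on the x axis. Filled red points passed edgeR's adjusted threshold, open grey points did not, and the dashed line is the median of all genes tested at −0.11; F9 stands highest at 2.09 and Serpinf2 lowest at −0.61.

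The height of all these changes depends on how libraries are scaled. TMM scaling factors were 0.777 to 0.891 in the HCB-labelled and 1.01 to 1.42 in the unexposed libraries. With library size alone, a setting chosen after seeing the data, the median of all genes moved to −0.64 and that of the 36 genes to 0.13. The difference between both medians was 0.77 with library size alone and 0.73 with TMM. It was 0.37 without Atorvastatin replicate 1 and Control replicate 1, the pair of libraries with most reads outside exons, where the median of the 36 genes was 0.34, and 0.53 to 0.98 with 1 library left out. With library size alone 11 of the 36 genes were higher and 6 lower. Higher genes then made up 17.6% of all genes called, against 45.7% with TMM. Of the 18 called genes, 10 passed in each of the 17 alternatives tried, namely C1s, Masp2, C8a, C8g, C9, C4bpa, Serping1, Vtn, F9 and Pros1. Removing that pair left 10 genes higher and 2 lower, while the calls over all genes were 4643 of 16722, against 7728 of 16591 with all libraries.

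**Figure D2:**
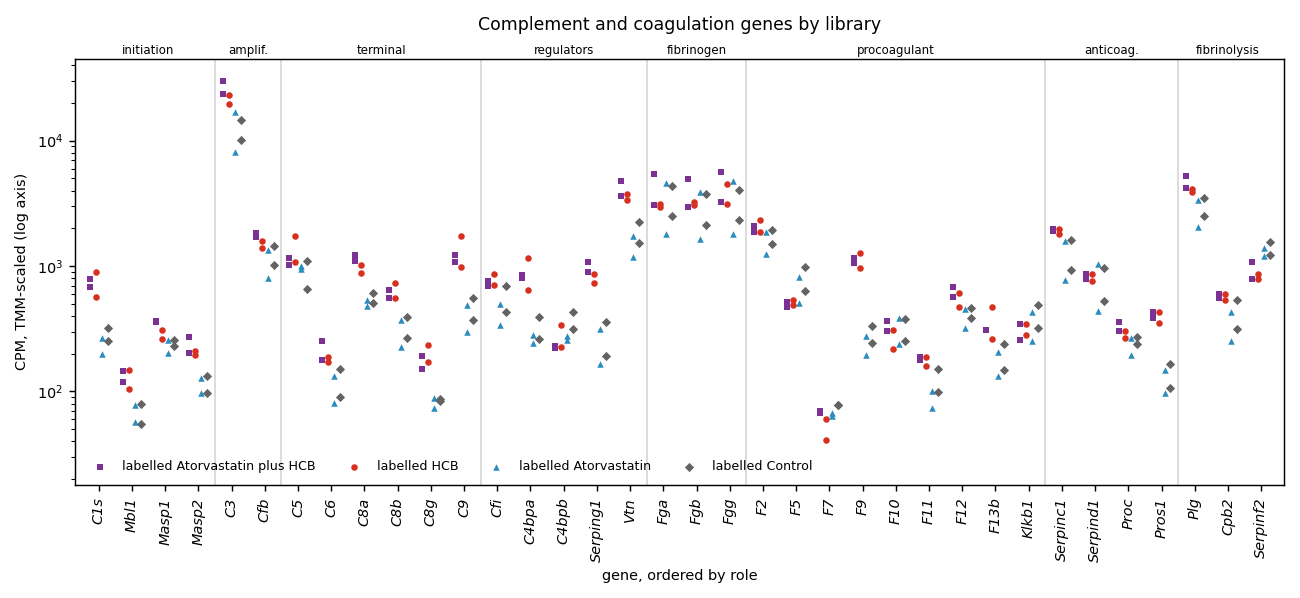
Level of each of the 36 genes in each of the 8 libraries, in TMM-scaled CPM on a log axis, with genes ordered by role. Each point is 1 library, in the order Atorvastatin plus HCB, HCB, Atorvastatin and Control within a gene; the HCB-labelled points of C1s, C9, Serping1, F9 and Pros1 lie clear above the unexposed ones, while those of Fga, Fgb and Fgg overlap.

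The initiating genes of the classical and lectin pathways were the first tier, and 3 of 4 rose. C1s (ENSRNOG00000011971, chr4:157430117-157442303, minus strand on mRatBN7.2) encodes the protease of the C1 complex that cleaves C4 and C2. It was at 786 and 683 CPM in the Atorvastatin plus HCB libraries and 893 and 565 CPM in the HCB libraries, against 199.7 and 265 CPM in the Atorvastatin libraries and 253 and 324 CPM in the Control libraries. The lowest HCB-labelled library stood 1.75-fold above the highest unexposed one, and the log2 fold change was 1.50 ± 0.23 (SE; adjusted p = 0.00047 by edgeR). Mbl1, a mannose-binding lectin that recognises microbial sugars, was at 145 and 120.0 CPM with Atorvastatin plus HCB, 149 and 104 CPM with HCB, 56.8 and 77.4 CPM with Atorvastatin and 54.7 and 79.4 CPM in Control. Its groups did not overlap, with a log2 fold change of 0.95 ± 0.20 (SE; adjusted p = 0.00337 by edgeR), but the call was lost with library size alone (edgeR adjusted p = 0.0536) and without the pair of libraries with most reads outside exons (0.0557).

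The lectin pathway proteases moved unequally. Masp2, which cleaves C4 and C2, was at 271 and 203 CPM in the Atorvastatin plus HCB libraries and 194 and 211 CPM in the HCB libraries, against 96.7 and 129 CPM in the Atorvastatin libraries and 97.2 and 132 CPM in the Control libraries. It rose by 0.95 ± 0.20 (SE; adjusted p = 0.00282 by edgeR) on the log2 scale, with no overlap between groups in TMM-scaled CPM. Masp1, which activates Masp2, was at 364 and 361 CPM with Atorvastatin plus HCB, 264 and 309 CPM with HCB, 202 and 259 CPM with Atorvastatin and 232 and 259 CPM in Control. All HCB-labelled values lay above the unexposed ones, but by a margin of only 1.02-fold, and the log2 fold change was 0.44 ± 0.19 (SE; adjusted p = 0.0746 by edgeR), which passed by DESeq2 (adjusted p = 0.0269) and had a negative sign with library size alone (−0.07). The ratio of Masp2 to Masp1 within a library, in reads per kilobase of exon, was 1.96 and 1.48 with Atorvastatin plus HCB, 1.93 and 1.79 with HCB, 1.26 and 1.31 with Atorvastatin and 1.10 and 1.34 in Control. The mean log2 ratio was higher in the HCB-labelled libraries by 0.51 on the log2 scale (exact permutation test, two-sided, p = 0.0286; adjusted p = 0.05 over 7 ratios). No ratio tested here or below passed the threshold of an adjusted p under 0.05. Both loci also make shorter products, which gene counts do not separate. The span of Rtp4 overlaps that of Masp1 on the other strand. Reads of that pair may not be told apart where exons overlap, which was not examined.

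C3 and factor B form the alternative pathway's amplifying enzyme, and C3 alone of them passed edgeR's test. C3 (ENSRNOG00000046834, chr9:2087437-2114429, minus strand), the component on which all pathways converge, was at 29759 and 23670.1 CPM in the Atorvastatin plus HCB libraries and 19798 and 23029.8 CPM in the HCB libraries, against 8178 and 16788 CPM in the Atorvastatin libraries and 10176 and 14504 CPM in the Control libraries. The HCB-labelled values were all higher, by 1.18-fold at the closest, and the log2 fold change was 0.95 ± 0.34 (SE; adjusted p = 0.0395 by edgeR). That call was lost in 8 of 17 alternatives, with library size alone (edgeR adjusted p = 0.0756), without the pair of libraries with most reads outside exons (0.115), and without Atorvastatin plus HCB replicate 1 (0.127) or 2 (0.0744), HCB replicate 1 (0.0808) or 2 (0.114), Atorvastatin replicate 1 (0.0845) or Control replicate 1 (0.136). Cfb, the protease of that enzyme, ranged over 1392 to 1821 CPM in the HCB-labelled libraries and 801 to 1448 CPM in the unexposed libraries. Its groups overlapped, with a log2 fold change of 0.49 ± 0.26 (SE; adjusted p = 0.137 by edgeR), and it passed by DESeq2 (adjusted p = 0.0497) and without Atorvastatin replicate 2 (edgeR adjusted p = 0.0433).

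The terminal components, which assemble the membrane attack pore, rose in 5 of 6 cases. C9 (ENSRNOG00000013736, chr2:55572992-55621338, plus strand), the subunit that polymerises into the pore, was at 1228 and 1074 CPM in the Atorvastatin plus HCB libraries and 1729 and 983 CPM in the HCB libraries, against 299 and 488 CPM in the Atorvastatin libraries and 371 and 557 CPM in the Control libraries. The closest values of both sides differed 1.76-fold, and the log2 fold change was 1.55 ± 0.28 (SE; adjusted p = 0.0012 by edgeR). The 3 chains of C8 are encoded apart, C8a and C8b next to each other on chromosome 5 and C8g on chromosome 3. C8a was at 1225 and 1088 CPM with Atorvastatin plus HCB, 880.3 and 1016 CPM with HCB, 481 and 540.1 CPM with Atorvastatin and 511 and 615 CPM in Control, with a log2 fold change of 0.97 ± 0.21 (SE; adjusted p = 0.00358 by edgeR). C8b was at 639 and 557 CPM with Atorvastatin plus HCB, 737 and 556 CPM with HCB, 228 and 369.9 CPM with Atorvastatin and 268 and 392 CPM in Control, with a log2 fold change of 0.98 ± 0.24 (SE; adjusted p = 0.00673 by edgeR). These neighbours thus rose side by side, and the HCB-labelled values of both lay above all unexposed ones.

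The third C8 chain, the lipocalin C8g, was at 190.4 and 151 CPM in the Atorvastatin plus HCB libraries and 236 and 171 CPM in the HCB libraries, against 88.4 and 73.7 CPM in the Atorvastatin libraries and 86.4 and 83.2 CPM in the Control libraries. Its log2 fold change was 1.17 ± 0.18 (SE; adjusted p = 0.000509 by edgeR), and Fbxw5 overlaps it on the other strand, so part of its reads may belong to that gene. Ratios of C8 chains within a library overlapped between the groups. For C8a to C8b the difference was −0.04 on the log2 scale (exact permutation test, two-sided, p = 0.886; adjusted p = 0.886 over 7 ratios). For C8g to C8b it was 0.15 on the log2 scale (exact permutation test, two-sided, p = 0.514; adjusted p = 0.72 over 7 ratios). C6, which joins C5b to start the pore, was at 254 and 177 CPM with Atorvastatin plus HCB, 189 and 171 CPM with HCB, 80.7 and 132 CPM with Atorvastatin and 90.0 and 151 CPM in Control and rose by 0.80 ± 0.24 (SE; adjusted p = 0.0178 by edgeR) on the log2 scale. The C6 call was lost with library size alone (edgeR adjusted p = 0.184), without the pair of libraries with most reads outside exons (0.169), and without Atorvastatin plus HCB replicate 1 (0.0718), Atorvastatin replicate 1 (0.0572) or Control replicate 1 (0.0764). The C8b call was lost without the same pair (0.0634). C5, whose fragment draws in leukocytes, ranged over 1013 to 1739 CPM in the HCB-labelled libraries and 661 to 1092 CPM in the unexposed libraries, and its log2 fold change was 0.42 ± 0.26 (SE; adjusted p = 0.205 by edgeR).

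The complement regulators held one of the larger changes of the list and also its clearest contrast between neighbouring genes. Serping1 (ENSRNOG00000007457, chr3:69842739-69852034, minus strand) encodes the C1 inhibitor, which also blocks plasma kallikrein and activated factor XII. It was at 1076 and 899 CPM in the Atorvastatin plus HCB libraries and 729 and 866 CPM in the HCB libraries, against 166 and 318 CPM in the Atorvastatin libraries and 190.3 and 356 CPM in the Control libraries. The lowest HCB-labelled value was 2.05-fold the highest unexposed one, and the log2 fold change was 1.79 ± 0.29 (SE; adjusted p = 0.000557 by edgeR). Vtn, or vitronectin, which binds the nascent terminal complex, was at 4735 and 3647 CPM with Atorvastatin plus HCB, 3362 and 3753 CPM with HCB, 1189 and 1724 CPM with Atorvastatin and 1541 and 2259 CPM in Control. It rose by 1.21 ± 0.27 (SE; adjusted p = 0.00398 by edgeR) on the log2 scale, with no overlap. Cfi, the protease that inactivates C3b and C4b, ranged over 692 to 866 CPM in the HCB-labelled libraries and 340.2 to 695 CPM in the unexposed libraries, with a log2 fold change of 0.64 ± 0.24 (SE; adjusted p = 0.0464 by edgeR). The highest unexposed value, in Control replicate 2, lay just above the lowest HCB-labelled one, and the call was lost in 8 of 17 alternatives, with edgeR adjusted p of 0.0563 to 0.492. These were library size alone (0.492), removal of the pair with most reads outside exons (0.276), and leaving out Atorvastatin plus HCB replicate 1 (0.122) or 2 (0.0859), HCB replicate 1 (0.1) or 2 (0.0563), Atorvastatin replicate 1 (0.131) or Control replicate 1 (0.178).

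C4b-binding protein, a cofactor for the breakdown of C4b, is built of alpha chains and a beta chain that binds protein S. Their genes lie 9593 bases apart on chromosome 13 and on the same strand. C4bpa (ENSRNOG00000004062, chr13:42075717-42111205, minus strand) was at 847 and 810.1 CPM in the Atorvastatin plus HCB libraries and 1161 and 643 CPM in the HCB libraries, against 244 and 281 CPM in the Atorvastatin libraries and 263 and 393 CPM in the Control libraries. It rose by 1.56 ± 0.25 (SE; adjusted p = 0.000616 by edgeR) on the log2 scale, and no HCB-labelled value overlapped an unexposed one. C4bpb (ENSRNOG00000004125, chr13:42120798-42131817, minus strand) was at 224 and 232 CPM with Atorvastatin plus HCB, 341 and 225 CPM with HCB, 258 and 278 CPM with Atorvastatin and 313 and 431 CPM in Control. The groups of C4bpb overlapped in TMM-scaled CPM, with a log2 fold change of −0.31 ± 0.21 (SE; adjusted p = 0.234 by edgeR). It passed the test in the lower direction with library size alone (−0.83, edgeR adjusted p = 0.00293). In TPM, reads per length set against all genes of the library, the C4bpb groups stood apart. They ranged over 214.7 to 292.1 TPM in the HCB-labelled and 380.7 to 513.7 TPM in the unexposed libraries.

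The ratio of C4bpb to C4bpa does not depend on library scaling. In reads per kilobase of exon it was 0.329 and 0.356 with Atorvastatin plus HCB, 0.365 and 0.436 with HCB, 1.32 and 1.23 with Atorvastatin and 1.49 and 1.36 in Control. The alpha chain thus had more reads per length than the beta chain in all 4 HCB-labelled libraries, and the beta chain had more in all 4 unexposed ones. The mean log2 ratio was −1.44 ± 0.171 in the HCB-labelled and 0.43 ± 0.111 in the unexposed libraries (SD, n = 4 each), a difference of −1.86 on the log2 scale (exact permutation test, two-sided, p = 0.0286; adjusted p = 0.05 over 7 ratios). The smallest p that 4 libraries against 4 allow is 0.0286, over 70 arrangements, and its adjusted value equals the threshold without passing it. When each library was left out in turn the difference ranged over −1.945 to −1.81.

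**Figure D3:**
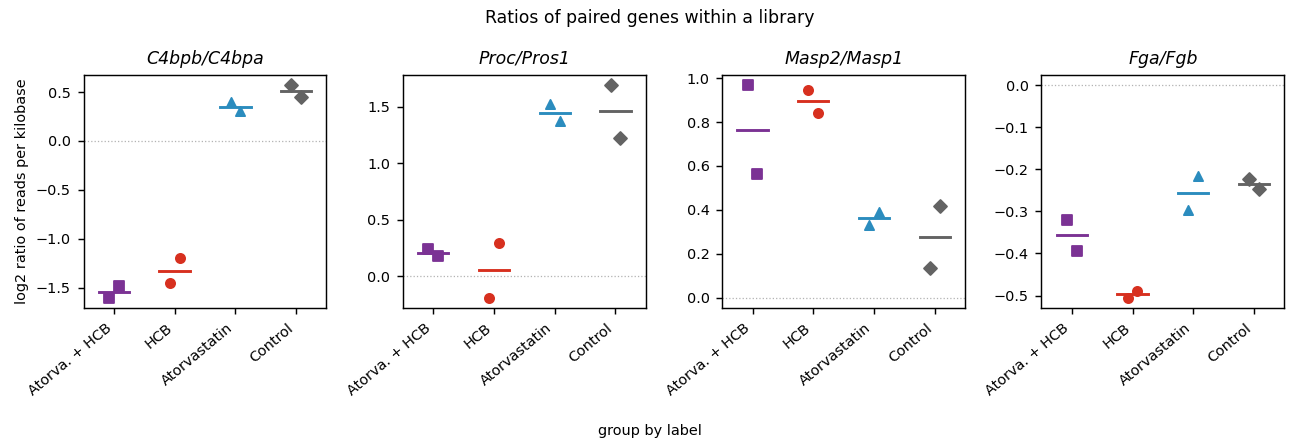
Log2 ratio of reads per kilobase between paired genes within each library, for the pairs whose 4 HCB-labelled and 4 unexposed libraries did not overlap. Points are libraries, by labelled group on the x axis, and bars are group means; C4bpb to C4bpa lies below 0 in all HCB-labelled libraries and above 0 in all unexposed ones. Each panel has its own y axis, and the range is widest for C4bpb to C4bpa and Proc to Pros1.

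The sequences before the start sites of this pair are shown because the neighbours differ in response and both genes carry an HNF1 core (GTTAAT on either strand), the letters bound by a hepatocyte transcription factor. They are the 250 bases before each RefSeq gene start on the GRCr8 assembly, another build than that of the counts, and capitals mark any of the motifs searched.
C4bpa promoter (chr13:44663472-44663721, minus strand): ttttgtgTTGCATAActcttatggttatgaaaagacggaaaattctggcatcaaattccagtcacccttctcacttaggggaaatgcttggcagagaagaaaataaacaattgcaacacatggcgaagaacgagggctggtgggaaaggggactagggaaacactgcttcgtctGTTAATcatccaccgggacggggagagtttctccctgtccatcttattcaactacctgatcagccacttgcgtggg
C4bpb promoter (chr13:44683782-44684031, minus strand): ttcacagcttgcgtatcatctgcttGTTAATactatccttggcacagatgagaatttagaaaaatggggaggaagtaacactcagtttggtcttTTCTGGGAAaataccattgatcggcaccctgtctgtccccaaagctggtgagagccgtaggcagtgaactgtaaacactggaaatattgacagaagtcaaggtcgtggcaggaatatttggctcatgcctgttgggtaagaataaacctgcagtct
In C4bpa the HNF1 core lies 76 to 71 bases before the start and in C4bpb 225 to 220 bases before it. C4bpa also holds the letters TTNNGCAA of a C/EBP core on the minus strand, where N is any base, and C4bpb holds TTCNNNGAA, the letters of a STAT3 site. A match is a description of these letters, and binding was not measured.

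The 3 fibrinogen chains, the coagulation genes of the list with the highest mean TPM, did not pass the test in either direction. Fga, Fgb and Fgg lie within one stretch of chromosome 2, where gaps of 11798 and 13388 bases separate neighbours. Fga (ENSRNOG00000024848, chr2:168374120-168381528, plus strand) was at 5418 and 3097 CPM in the Atorvastatin plus HCB libraries and 3153 and 2963 CPM in the HCB libraries, against 1813 and 4613 CPM in the Atorvastatin libraries and 2493 and 4325 CPM in the Control libraries. Fgb was at 4952 and 2974 CPM with Atorvastatin plus HCB, 3273 and 3043 CPM with HCB, 1629.5 and 3923 CPM with Atorvastatin and 2129 and 3754 CPM in Control, and Fgg at 5658 and 3222 CPM with Atorvastatin plus HCB, 4528 and 3125 CPM with HCB, 1807 and 4746 CPM with Atorvastatin and 2347 and 4069 CPM in Control. In each chain the values of both sides overlapped, and replicate 2 of Atorvastatin and of Control stood with the HCB-labelled libraries while replicate 1 stood below them. The log2 fold changes were 0.12 (adjusted p = 0.791 by edgeR) for Fga, 0.31 (adjusted p = 0.481 by edgeR) for Fgb and 0.35 (adjusted p = 0.458 by edgeR) for Fgg, and each had a negative sign with library size alone, without a call.

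**Figure D4:**
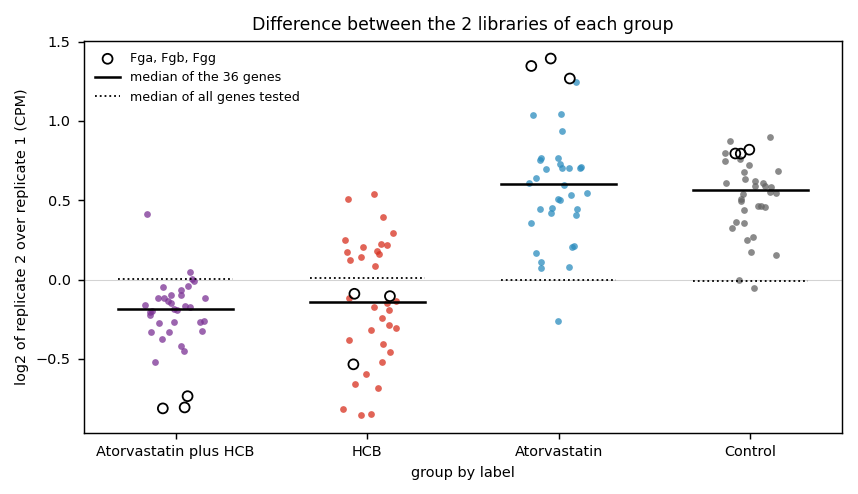
Log2 ratio of replicate 2 over replicate 1 of each gene within each labelled group, from TMM-scaled CPM. Each dot is 1 of the 36 genes, open circles are the fibrinogen chains, solid lines are medians of the 36 genes and dotted lines medians of all genes tested; the solid line lies at 0.60 in Atorvastatin, 0.57 in Control, −0.14 in HCB and −0.19 in Atorvastatin plus HCB.

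The spread between the fibrinogen values was part of a wider one. In the Atorvastatin group 35 of 36 genes were higher in replicate 2 than in replicate 1, and in Control 34 of 36, with median log2 ratios of 0.60 and 0.57. Among all genes the share higher in replicate 2 was 49.7% in Atorvastatin and 49.1% in Control. In Atorvastatin plus HCB 3 of 36 genes and in HCB 14 of 36 were higher in replicate 2, with medians of −0.19 and −0.14. The replicate 1 libraries of Atorvastatin and Control were also those with 34.04% and 27.7% of reads outside exons, against 19.5% and 15.3% in their replicate 2, and the part of this in the spread was not tested. The numbers do not order the animals, and a difference between 2 rats of a group has no test.

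Within a library the fibrinogen chains stayed close to each other. The ratio of Fga to Fgb, in reads per kilobase, was 0.800 and 0.762 with Atorvastatin plus HCB, 0.705 and 0.712 with HCB, 0.814 and 0.860 with Atorvastatin and 0.857 and 0.843 in Control. The mean log2 ratio was lower in the HCB-labelled libraries by a small step, −0.18 on the log2 scale (exact permutation test, two-sided, p = 0.0286; adjusted p = 0.05 over 7 ratios), with no overlap. The ratio of Fgg to Fgb overlapped and differed by 0.03 on the log2 scale (exact permutation test, two-sided, p = 0.829; adjusted p = 0.886 over 7 ratios). The sequences before Fga and Fgb are shown because these neighbours hold 3 of the same motif kinds. Fgg, the other chain, held none of these kinds, and only TATAAA of the motifs searched, 50 to 45 bases before its start.
Fga promoter (chr2:170671919-170672168, plus strand): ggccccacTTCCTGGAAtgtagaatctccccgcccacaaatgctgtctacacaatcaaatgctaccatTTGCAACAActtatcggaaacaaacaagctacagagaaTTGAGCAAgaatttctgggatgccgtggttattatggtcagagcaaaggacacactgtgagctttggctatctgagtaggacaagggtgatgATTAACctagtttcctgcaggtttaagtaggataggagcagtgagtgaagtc
Fgb promoter (chr2:170700876-170701125, minus strand): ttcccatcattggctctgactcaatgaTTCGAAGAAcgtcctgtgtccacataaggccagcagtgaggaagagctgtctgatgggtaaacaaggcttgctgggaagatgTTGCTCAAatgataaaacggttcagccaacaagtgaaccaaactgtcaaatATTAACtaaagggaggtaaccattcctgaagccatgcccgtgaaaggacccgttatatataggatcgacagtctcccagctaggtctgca
Both hold an HNF1 core, read as ATTAAC because it lies on the minus strand, a C/EBP core and a STAT3 site, and Fga also holds TTGNNNCAA, a gapped C/EBP site. Coordinates are on GRCr8 and the letters are RefSeq's.

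Among the 9 procoagulant zymogens and cofactors F9, F11 and F13b rose and none fell. F9 (ENSRNOG00000003430, chrX:138352298-138396835, plus strand), factor IX of the intrinsic pathway, had the largest change of the 36 genes. It was at 1151 and 1059.8 CPM in the Atorvastatin plus HCB libraries and 1264 and 971 CPM in the HCB libraries, against 197 and 279 CPM in the Atorvastatin libraries and 242 and 333 CPM in the Control libraries. The lowest HCB-labelled library stood 2.92-fold above the highest unexposed one, and the log2 fold change was 2.09 ± 0.24 (SE; adjusted p = 5.68e-05 by edgeR). F11, the zymogen that activates factor IX, was at 189 and 177 CPM with Atorvastatin plus HCB, 188 and 159 CPM with HCB, 74.0 and 101 CPM with Atorvastatin and 98.7 and 151 CPM in Control, with a log2 fold change of 0.77 ± 0.20 (SE; adjusted p = 0.00874 by edgeR). F13b, the carrier subunit of the fibrin-crosslinking factor XIII, was at 309 and 310.2 CPM with Atorvastatin plus HCB, 468 and 260.4 CPM with HCB, 133 and 207 CPM with Atorvastatin and 149 and 237 CPM in Control, with a log2 fold change of 0.89 ± 0.26 (SE; adjusted p = 0.0154 by edgeR). In both genes the groups stood apart in TMM-scaled CPM by a narrow margin, 1.06-fold for F11 and 1.10-fold for F13b. The F11 call was lost with library size alone (edgeR adjusted p = 0.19) and without the pair of libraries with most reads outside exons (0.0991), and that of F13b with library size alone (0.121), without that pair (0.151) and without HCB replicate 1 (0.0551) or Control replicate 1 (0.0672).

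The sequence before F9 is shown because this gene changed most and because 3 of the motif kinds searched occur there within a short stretch before the start.
F9 promoter (chrX:143388392-143388641, plus strand): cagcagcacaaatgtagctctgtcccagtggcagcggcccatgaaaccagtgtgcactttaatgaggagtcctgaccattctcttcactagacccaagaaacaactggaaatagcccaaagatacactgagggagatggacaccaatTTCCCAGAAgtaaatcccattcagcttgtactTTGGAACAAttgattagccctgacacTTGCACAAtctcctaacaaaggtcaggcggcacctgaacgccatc
A STAT3 site lies 103 to 95 bases, a gapped C/EBP site 71 to 63 bases and a C/EBP core 45 to 38 bases before the start, on GRCr8, and no match to the HNF1 core was found in this window.

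The other 6 procoagulant genes did not pass edgeR's test. F12, the contact factor, ranged over 468 to 682 CPM in the HCB-labelled libraries and 319 to 461 CPM in the unexposed libraries, just apart, with a log2 fold change of 0.52 ± 0.22 (SE; adjusted p = 0.0705 by edgeR), and passed by DESeq2 (adjusted p = 0.0208) and without Atorvastatin replicate 2 (edgeR adjusted p = 0.0401). F2, prothrombin, ranged over 1859 to 2318 CPM in the HCB-labelled libraries and 1238 to 1948 CPM in the unexposed libraries, with a log2 fold change of 0.31 (adjusted p = 0.321 by edgeR). The factor VII and factor X genes lie 1576 bases apart on chromosome 16. F7, which with tissue factor starts the extrinsic pathway, ranged over 41.2 to 69.6 CPM in the HCB-labelled libraries and 63.9 to 78.3 CPM in the unexposed libraries, with a log2 fold change of −0.28 (adjusted p = 0.178 by edgeR). F10, whose product converts prothrombin, ranged over 218 to 364 CPM in the HCB-labelled libraries and 238 to 388 CPM in the unexposed libraries, with a log2 fold change of −0.09 (adjusted p = 0.786 by edgeR). These neighbours both overlapped between groups in TMM-scaled CPM, and neither passed the test. With library size alone both were called lower (edgeR adjusted p = 0.00641 for F7 and 0.0272 for F10). In TPM, which sets reads per length against all genes of the library, the groups stood apart. F7 ranged over 33.1 to 67.1 TPM in the HCB-labelled and 86.4 to 115.5 TPM in the unexposed libraries, and F10 over 228 to 425 TPM and 486 to 646 TPM.

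F5, the cofactor of factor X, was at 516 and 476 CPM in the Atorvastatin plus HCB libraries and 486 and 535 CPM in the HCB libraries, against 505 and 823 CPM in the Atorvastatin libraries and 636 and 979 CPM in the Control libraries. The HCB-labelled CPM values formed a narrow band at the lower edge of the unexposed range, with a log2 fold change of −0.54 ± 0.24 (SE; adjusted p = 0.0864 by edgeR). They lay below that range in Atorvastatin plus HCB replicate 2 and HCB replicate 1. In TPM the F5 groups stood apart, at 99.5 to 137.8 in the HCB-labelled and 217.4 to 278.7 in the unexposed libraries. F5 passed the test in the lower direction by DESeq2 (−0.53, adjusted p = 0.0409), with library size alone (−1.03, edgeR adjusted p = 0.000652), without Atorvastatin replicate 1 (−0.70, edgeR adjusted p = 0.0382) and without the pair of libraries with most reads outside exons (−0.84, edgeR adjusted p = 0.0217). Klkb1, plasma prekallikrein, lies 4054 bases from F11 on the same strand and ranged over 257 to 343 CPM in the HCB-labelled libraries and 253 to 489 CPM in the unexposed libraries, with a log2 fold change of −0.28 (adjusted p = 0.359 by edgeR). It passed in the lower direction with library size alone (edgeR adjusted p = 0.00819). F11 was thus called higher while the groups of its neighbour overlapped in TMM-scaled CPM. In TPM the Klkb1 groups stood apart, at 184 to 284 in the HCB-labelled and 350 to 452 in the unexposed libraries. Those of F11 overlapped in TPM, at 117.5 to 137.2 in the HCB-labelled and 97.1 to 130.6 in the unexposed libraries. The groups of Masp2, C3, C6, C8a, Cfi and F13b, also called higher, overlapped in TPM as well.

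Among the 4 anticoagulant genes Pros1 alone passed edgeR's test. Pros1 (ENSRNOG00000048723, chr11:230696-311286, plus strand), protein S, the cofactor of activated protein C, was at 429 and 382 CPM in the Atorvastatin plus HCB libraries and 434 and 351 CPM in the HCB libraries, against 96.6 and 147 CPM in the Atorvastatin libraries and 106 and 165 CPM in the Control libraries. The lowest HCB-labelled value was 2.12-fold the highest unexposed one, and the log2 fold change was 1.63 ± 0.23 (SE; adjusted p = 0.000231 by edgeR). Proc, protein C itself, was at 355 and 305 CPM with Atorvastatin plus HCB, 268 and 302 CPM with HCB, 195 and 267 CPM with Atorvastatin and 240.3 and 271 CPM in Control. The Proc values overlapped between Control replicate 2 and HCB replicate 1, with a log2 fold change of 0.34 ± 0.19 (SE; adjusted p = 0.173 by edgeR). The ratio of Proc to Pros1 within a library was 1.18 and 1.14 with Atorvastatin plus HCB, 0.878 and 1.23 with HCB, 2.88 and 2.58 with Atorvastatin and 3.22 and 2.34 in Control, and its mean log2 value was lower in the HCB-labelled libraries by −1.32 on the log2 scale (exact permutation test, two-sided, p = 0.0286; adjusted p = 0.05 over 7 ratios).

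F9 and Pros1 belong to the vitamin K-dependent proteins of the list, as do F2, F7, F10 and Proc, which did not pass the test. Serpinc1, antithrombin, the main inhibitor of thrombin and factor X, was at 1959.9 and 1903 CPM with Atorvastatin plus HCB, 1969 and 1814 CPM with HCB, 774 and 1599 CPM with Atorvastatin and 933 and 1625 CPM in Control, with a log2 fold change of 0.63 ± 0.29 (SE; adjusted p = 0.0987 by edgeR). Its groups stood apart by 1.12-fold, with replicate 2 of Atorvastatin and of Control close to the HCB-labelled values. It passed by DESeq2 (adjusted p = 0.0304), with no filter on low counts (edgeR adjusted p = 0.0497) and without Atorvastatin replicate 2 (0.0163). Serpind1, heparin cofactor II, ranged over 762 to 872 CPM in the HCB-labelled libraries and 441 to 1047 CPM in the unexposed libraries and overlapped, with a log2 fold change of 0.14 (adjusted p = 0.719 by edgeR). The span of Zbtb37 overlaps that of Serpinc1, and the span of Pi4ka that of Serpind1, on the other strand. Reads of these pairs may not be told apart where exons overlap, which was not examined.

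Of the 3 genes of fibrinolysis Serpinf2 was the only member of the whole list called lower by edgeR. Serpinf2 (ENSRNOG00000003233, chr10:60272400-60281243, minus strand), alpha-2-antiplasmin, the main inhibitor of plasmin, was at 1083 and 792 CPM in the Atorvastatin plus HCB libraries and 860.2 and 783 CPM in the HCB libraries, against 1198 and 1389 CPM in the Atorvastatin libraries and 1233 and 1547 CPM in the Control libraries. All 4 HCB-labelled values lay below all 4 unexposed ones, at 879.6 ± 140.0 CPM in the HCB-labelled and 1342 ± 160.3 CPM in the unexposed libraries (SD, n = 4 each). The log2 fold change was −0.61 ± 0.23 (SE; adjusted p = 0.0465 by edgeR), and this call held in 6 of 17 alternatives. It was lost in each of the 8 fits that left out 1 library, Atorvastatin plus HCB replicate 1 (edgeR adjusted p = 0.088) or 2 (0.22), HCB replicate 1 (0.0879) or 2 (0.106), Atorvastatin replicate 1 (0.0514) or 2 (0.09), and Control replicate 1 (0.0685) or 2 (0.158), as well as with DESeq2 size factors in edgeR (0.056), with no filter on low counts (0.0515) and with a replicate block (0.0571). Plg, plasminogen, ranged over 3869.7 to 5258 CPM in the HCB-labelled libraries and 2044 to 3459.9 CPM in the unexposed libraries, with a log2 fold change of 0.61 (adjusted p = 0.0911 by edgeR). Cpb2, the carboxypeptidase that protects fibrin from plasmin, ranged over 533 to 602 CPM in the HCB-labelled libraries and 251 to 532 CPM in the unexposed libraries, with a log2 fold change of 0.60 (adjusted p = 0.0707 by edgeR). Both were higher in every HCB-labelled library than in any unexposed one, by 1.12-fold and 1.00-fold at the closest, but did not pass edgeR's test. DESeq2 called Plg (adjusted p = 0.013) and Cpb2 (adjusted p = 0.0265) higher. By edgeR Plg passed without Atorvastatin replicate 2 (adjusted p = 0.032), and Cpb2 passed without that library (0.0214), without Control replicate 2 (0.0315) and with no filter on low counts (0.0375).

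The comparison splits into HCB against Control and Atorvastatin plus HCB against Atorvastatin, which share no library but share the estimate of spread. In HCB against Control 9 genes were higher and 0 lower of 36, beside 13% and 13.9% of all genes tested, 26.9% in either direction, with a median log2 fold change of 0.48. By DESeq2 13 were higher and 1 lower, and at an unadjusted edgeR p under 0.05 there were 13 higher and 2 lower. Of all 16591 genes tested, DESeq2 called 5109 in either direction, and 6535 had an unadjusted edgeR p under 0.05. In Atorvastatin plus HCB against Atorvastatin 14 were higher and 0 lower, beside 12.6% and 15% of all genes, 27.6% in either direction, with a median of 0.79. By DESeq2, and likewise at an unadjusted edgeR p under 0.05, there were 19 higher and 0 lower. Over all genes of that pair DESeq2 called 5260 of 16591 in either direction, and 6771 had an unadjusted edgeR p under 0.05. Both medians moved with single libraries. That of HCB against Control was 0.21 without Control replicate 1 and 0.89 without Control replicate 2, and that of the pair given atorvastatin was 0.49 without Atorvastatin replicate 1 and 1.23 without Atorvastatin replicate 2. C1s, C4bpa, C8g, C9, F9, Masp2, Mbl1, Pros1 and Serping1 were called in both pairs, and C6, C8a, C8b, F11 and Vtn in the pair given atorvastatin but not in the other, and the interaction was called for none of them by edgeR. C3, Cfi, F13b and Serpinf2 were called over 4 against 4 libraries but in neither pair. The sign was the same in both pairs for 33 of 36 genes, and for 85.6% of all genes tested.

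**Figure D5:**
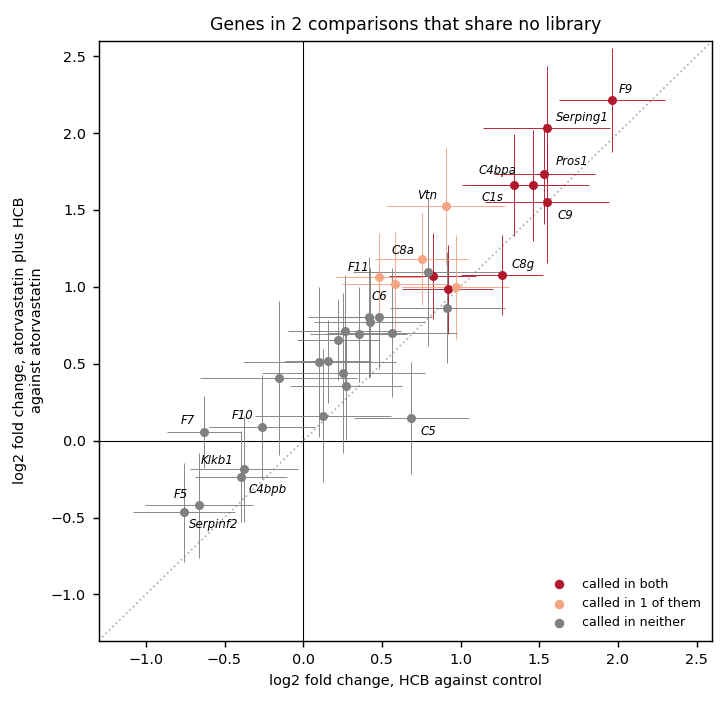
Log2 fold change of each gene in HCB against Control (x axis) and in Atorvastatin plus HCB against Atorvastatin (y axis), with bars of 1 SE and the dotted line of equal change. Red points passed the test in both, orange points in 1 and grey points in neither; most points lie near or above the line, F9 is farthest out at 1.96 and 2.22, and Serpinf2 and F5 lie lowest.

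F9 rose by 2.22 ± 0.34 (SE; adjusted p = 0.000991 by edgeR) in Atorvastatin plus HCB against Atorvastatin and by 1.96 ± 0.34 (SE; adjusted p = 0.00188 by edgeR) in HCB against Control. Serping1 rose by 2.03 ± 0.41 (SE; adjusted p = 0.0047 by edgeR) in the pair given atorvastatin and by 1.55 ± 0.40 (SE; adjusted p = 0.0165 by edgeR) in the other pair. C9 rose by 1.55 ± 0.40 (SE; adjusted p = 0.0152 by edgeR) and 1.55 ± 0.40 (SE; adjusted p = 0.0154 by edgeR) in the same order. These differences between the pairs were smaller than the SE of the interaction, 0.46 for F9, 0.56 for Serping1 and 0.55 for C9. Vtn rose by 1.52 ± 0.38 (SE; adjusted p = 0.0142 by edgeR) in Atorvastatin plus HCB against Atorvastatin and was at 0.90 ± 0.38 (SE; adjusted p = 0.1 by edgeR) in HCB against Control, a difference that was not called (interaction 0.62 ± 0.53). The counts rested on single libraries. Without Control replicate 1 HCB against Control called 2 genes higher and without HCB replicate 1 it called 4. Over all genes it then called 2164 of 17434 and 2595 of 17675 in either direction, against 4466 of 16591 with all libraries. Without Atorvastatin plus HCB replicate 1 the pair given atorvastatin called 5, without replicate 2 of that group 9, and without Atorvastatin replicate 1 it called 6. Over all genes the calls of that pair were then 1902 of 17631, 2504 of 17602 and 2629 of 17250, against 4571 of 16591 with all libraries, so that calls were fewer over all genes as well.

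Atorvastatin was compared in the absence and in the presence of HCB, and 0 of the 36 genes passed edgeR's test in either case. Of all genes tested, 0% were called. At an unadjusted edgeR p under 0.05 there were 0 of the 36 genes in each, beside 857 of all genes in Atorvastatin plus HCB against HCB and 181 in Atorvastatin against Control. DESeq2 called 44 and 3 genes there, with 0 of the 36 among them. In Atorvastatin against Control the median log2 fold change of all genes tested was 0.01. Of the 36 genes 32 had a negative value, with a median of −0.15, but the sign of that median rested on single libraries. It was 0.10 without Atorvastatin replicate 1, 0.09 without Control replicate 2, −0.55 without Atorvastatin replicate 2 and −0.43 without Control replicate 1. In Atorvastatin plus HCB against HCB the median of the 36 genes was 0.07, beside 0 over all genes tested, and 24 of 36 were positive. Here too single libraries set the sign, since the median was −0.03 with 16 positive without Atorvastatin plus HCB replicate 1, 0.16 with 27 positive without replicate 2 of that group, 0.19 with 34 positive without HCB replicate 1 and 0.005 with 18 positive without HCB replicate 2.

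Single genes show how wide the errors of these comparisons are. F9 had a log2 fold change of −0.02 ± 0.32 (SE; adjusted p = 1 by edgeR) in Atorvastatin plus HCB against HCB and of −0.27 ± 0.32 (SE; adjusted p = 1 by edgeR) in Atorvastatin against Control. F11, the gene with the most negative value in Atorvastatin against Control, had −0.51 ± 0.28 (SE; adjusted p = 1 by edgeR). Fga, with the highest value in Atorvastatin plus HCB against HCB, had 0.48 ± 0.50 (SE; adjusted p = 0.899 by edgeR). The interaction, which asks whether the HCB difference depends on atorvastatin, called 0 of the 36 genes by edgeR and by DESeq2, with 0 at an unadjusted p under 0.05. Of all genes it called 0 by edgeR and 5 by DESeq2, with 391 at an unadjusted edgeR p under 0.05. The nearest of the 36 was F7, at 0.69 ± 0.33 (edgeR unadjusted p = 0.0628; adjusted p = 1). F7 stood at 69.6 and 67.3 CPM with Atorvastatin plus HCB, 41.2 and 59.9 CPM with HCB, 63.9 and 67.6 CPM with Atorvastatin and 78.3 and 78.0 CPM in Control, so that HCB replicate 1 was the lowest library. A p that misses the threshold does not show that levels were alike.

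Levels were set between genes per length, in TPM computed from the deposited counts and exonic lengths. C3 was first in both sets of libraries, at 8710.3 ± 1785 TPM in the HCB-labelled and 6472 ± 1319.7 TPM in the unexposed libraries (SD, n = 4 each). Vtn was 2nd in the HCB-labelled libraries and 5th in the unexposed ones, at 4458 ± 807 TPM in the HCB-labelled and 2794 ± 264 TPM in the unexposed libraries (SD, n = 4 each). The fibrinogen chains stood around it, Fgg at 4089.9 ± 972 TPM in the HCB-labelled and 4645 ± 1466 TPM in the unexposed libraries (SD, n = 4 each) and Fgb at 3447 ± 841 TPM in the HCB-labelled and 3971 ± 1083 TPM in the unexposed libraries (SD, n = 4 each). In the HCB-labelled libraries Vtn and Fgg, and Fgg and Fgb, differed by less than their SD, and in the unexposed ones Fgg and Fgb, and Fgb and Fga, did. TPM sets a gene against all others of the library, and on that scale the fibrinogen means were lower in the HCB-labelled libraries, while on the TMM-scaled scale they were higher, with overlap on both. The least abundant were F7, at 55.8 ± 15.4 TPM in the HCB-labelled and 99.2 ± 14.7 TPM in the unexposed libraries (SD, n = 4 each), and C8g, at 52.8 ± 4.85 TPM in the HCB-labelled and 35.7 ± 8.41 TPM in the unexposed libraries (SD, n = 4 each), whose annotated exonic length of 6613 bases is long for a lipocalin.

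F9 was the gene with the largest change in place, 12th of 36 by TPM in the HCB-labelled libraries and 24th in the unexposed ones, at 750.0 ± 23.6 TPM in the HCB-labelled and 260.1 ± 11.9 TPM in the unexposed libraries (SD, n = 4 each). Serping1 was 10th and 21st, C4bpa 13th and 22nd. Genes that stood lower in the HCB-labelled order were C4bpb, 26th and 17th, F10, 22nd and 13th, F5, 33rd and 25th, Klkb1, 27th and 19th, and Serpinf2, 16th and 9th. Serpinf2 was at 554 ± 80.0 TPM in the HCB-labelled and 1254 ± 87.8 TPM in the unexposed libraries (SD, n = 4 each). Plg, F2 and Serpinc1 kept places 6, 7 and 8. The 36 genes together held 4.73% and 4.00% of TPM in the Atorvastatin plus HCB libraries, 3.35% and 3.95% in HCB, 3.13% and 4.49% in Atorvastatin and 3.37% and 3.90% in Control. That share overlapped between the sides. On the TMM-scaled scale the summed level did not, at 58875 to 77709 CPM in the HCB-labelled and 27133 to 50730.0 CPM in the unexposed libraries.

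Promoter windows were searched for letters of factors known to drive liver genes, on both strands, in the 250 bases before and 50 after each RefSeq gene start on GRCr8. Of the 36 genes 28 matched a window, and C1s, C8g, C9, Cfb, Cpb2, Masp2, Serpind1 and Serping1 did not. The HNF1 core GTTAAT was in 10 of 28 windows (35.7%), beside 7.46% of 33365 windows of the same length, and the full site, which is GTTAAT, any base and ATTAA, was in that of C5 alone, beside 0.045%. The C/EBP core TTNNGCAA was in 10 of 28 (35.7%), beside 10.6%, the gapped TTGNNNCAA in 5 (17.9%), beside 5.75%, and TTGCGCAA in 0, beside 0.171%. The STAT3 site TTCNNNGAA was in 7 (25%), beside 8.88%. TATAAA was in 2 (7.14%), beside 14.2%, and the HNF4 sites, CAAAGTCCA and a repeat of AGGTCA spaced by 1 base, were in 0, beside 0.393% and 0.0539%. TTGCGCAA would also match TTNNGCAA, and the full HNF1 site contains the core. Of the 12 genes called higher that had a window, 3 held the HNF1 core, 6 the C/EBP core and 4 the STAT3 site.

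Other genes of both systems, from lists fixed beside the 36, did not all move with them. Of 29 other complement genes tested 12 were higher and 5 lower in the HCB-labelled libraries, with a median log2 fold change of 0.53. Beside them, 21.3% of all genes tested were higher and 25.3% lower. Vsig4, the complement receptor of tissue macrophages, averaged 38.1 ± 10.3 CPM in the HCB-labelled and 3.87 ± 1.02 CPM in the unexposed libraries (SD, n = 4 each), a log2 fold change of 3.29 (adjusted p = 5.83e-06 by edgeR). Cd55, a membrane inhibitor of C3 convertases, averaged 0.373 ± 0.199 CPM in the HCB-labelled and 4.35 ± 1.35 CPM in the unexposed libraries (SD, n = 4 each), a log2 fold change of −3.56 (adjusted p = 7.11e-05 by edgeR), while Cd59, the membrane inhibitor of the terminal pore, was at 2.21 (adjusted p = 0.000141 by edgeR). Clu, the soluble inhibitor clusterin, averaged 977 ± 273 CPM in the HCB-labelled and 277 ± 74.6 CPM in the unexposed libraries (SD, n = 4 each). C1rl, a protease related to C1r, was at 1.48 (adjusted p = 9.99e-05 by edgeR), and the ficolin Fcnb at −3.29 (adjusted p = 0.000327 by edgeR), from levels near the lower limit. Among 8 macrophage and Kupffer cell markers 2 were higher and 2 lower, with summed levels of 273.7 to 461.6 CPM in the HCB-labelled and 235.8 to 392.2 CPM in the unexposed libraries. Vsig4 is itself one of these markers.

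Of 33 other coagulation and fibrinolysis genes 5 were higher and 17 lower, beside 21.3% and 25.3% of all genes tested, with a median of −0.70. A2m, alpha-2-macroglobulin, a broad protease inhibitor and acute phase protein of the rat, averaged 17.6 ± 9.83 CPM in the HCB-labelled and 1918 ± 608 CPM in the unexposed libraries (SD, n = 4 each), a log2 fold change of −6.79 (adjusted p = 2.57e-06 by edgeR). Kng1, a kininogen of contact activation, averaged 229 ± 44.6 CPM in the HCB-labelled and 1962 ± 834 CPM in the unexposed libraries (SD, n = 4 each), a log2 fold change of −3.09 (adjusted p = 4.89e-05 by edgeR). F2r, the thrombin receptor, was at −1.80 (adjusted p = 1.32e-05 by edgeR). Hpn, the protease hepsin, rose by 1.22 (adjusted p = 0.000245 by edgeR) and Mcfd2, a cargo receptor for factors V and VIII, by 1.26 (adjusted p = 0.000451 by edgeR). Platelet and megakaryocyte markers fell in 6 of 7 cases tested, with summed levels of 44.8 to 55.4 CPM in the HCB-labelled and 71.8 to 90.9 CPM in the unexposed libraries and Gp1bb at 0 in both. Their part in this list's count was not tested.

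Genes listed around vitamin K and the carboxylation of F2, F7, F9, F10, Proc and Pros1 were higher in 5 of 8 cases, with a median of 0.79. Of all genes tested, 21.3% were higher, and carboxylation itself was not measured. The quinone reductase Nqo1 averaged 47.6 ± 14.2 CPM in the HCB-labelled and 8.02 ± 3.11 CPM in the unexposed libraries (SD, n = 4 each), and Vkorc1, the warfarin-sensitive epoxide reductase, averaged 91.5 ± 19.9 CPM in the HCB-labelled and 43.4 ± 9.55 CPM in the unexposed libraries (SD, n = 4 each). Their log2 fold changes were 2.59 (adjusted p = 2.87e-05 by edgeR) and 1.07 (adjusted p = 0.0021 by edgeR). Cyp4f1 and Cyp4f4, P450 genes related to a human vitamin K hydroxylase, rose by 1.85 (adjusted p = 0.000229 by edgeR) and 0.90 (adjusted p = 0.00212 by edgeR) on the log2 scale. Vkorc1l1, a paralogue of Vkorc1, rose by 0.68 (adjusted p = 0.0117 by edgeR). Ggcx, the carboxylase itself, was at 0.31 (adjusted p = 0.254 by edgeR).

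Other plasma protein genes of hepatocytes were higher in 24 of 36 cases and lower in 4, beside 21.3% and 25.3% of all genes tested, with a median of 1.09. Apoa2, an apolipoprotein of HDL, averaged 378 ± 77.8 CPM in the HCB-labelled and 22.7 ± 5.12 CPM in the unexposed libraries (SD, n = 4 each), and Serpina6, the corticosteroid-binding globulin, averaged 401 ± 93.0 CPM in the HCB-labelled and 6.93 ± 2.79 CPM in the unexposed libraries (SD, n = 4 each). The thyroxine-binding globulin Serpina7 averaged 1.88 ± 1.22 CPM in the HCB-labelled and 84.8 ± 28.1 CPM in the unexposed libraries (SD, n = 4 each). Apoa4, Pon1 and Igfals, which encode an apolipoprotein, a lipoprotein-bound esterase and the acid-labile subunit of the IGF complex, were at 5.09 (adjusted p = 5.57e-06 by edgeR), 2.86 (adjusted p = 1.75e-05 by edgeR) and 3.20 (adjusted p = 1.84e-05 by edgeR). Acute phase genes rose in 9 and fell in 3 of 20 cases, beside the same shares of all genes, with a median of 0.54. A2m is among them and is also on the list of other coagulation genes. Orm1, an acid glycoprotein, was at 6.36 (adjusted p = 3.63e-07 by edgeR), the pentraxin Crp at 3.79 (adjusted p = 1.21e-05 by edgeR), the apolipoprotein Saa4 at 2.41 (adjusted p = 9.32e-05 by edgeR), the lipopolysaccharide-binding protein Lbp at −1.58 (adjusted p = 0.000186 by edgeR) and hepcidin, Hamp, at 4.67 (adjusted p = 0.000276 by edgeR). The fibrinogen chains were not called beside these.

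Among 23 transcription factor genes of the liver 7 were higher and 1 was lower, with a median of 0.29. Of all genes tested, 21.3% were higher and 25.3% lower, 46.6% in either direction. Hnf4a, a nuclear receptor of hepatocytes, averaged 629.7 ± 93.6 CPM in the HCB-labelled and 328 ± 49.3 CPM in the unexposed libraries (SD, n = 4 each), a log2 fold change of 0.94 (adjusted p = 0.00497 by edgeR). Cebpb, a factor of the acute phase, averaged 69.1 ± 6.54 CPM in the HCB-labelled and 30.5 ± 9.12 CPM in the unexposed libraries (SD, n = 4 each), a log2 fold change of 1.21 (adjusted p = 0.000409 by edgeR). The pioneer factor Foxa1 was at 0.77 (adjusted p = 0.0178 by edgeR). The oestrogen receptor Esr1 was at 6.84 (adjusted p = 2.05e-06 by edgeR), and the fatty acid sensor Ppara was the gene called lower, at −1.19 (adjusted p = 0.000297 by edgeR). The same libraries differed in Y-linked and fetal liver genes as given above.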

How the data were processed

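Read counts per gene were deposited by the authors for 8 liver libraries, as whole numbers for 30562 Ensembl genes with their exonic length. Trimming was with fastp 0.23.4 and alignment with STAR 2.7.10b, per the submitters' processing notes. Reads were counted over exons with featureCounts 2.0.6, per the file headers, using exons of Ensembl release 111 on mRatBN7.2, without the options for strand or read pairs. The deposited classes add up to 508 M reads, 2.04 times the 249 M stated, so mates appear to have been counted singly. The authors' own tests were made by DESeq2 1.42.1 under R 4.3.2, per the submitters' processing notes. Of the sample columns, 0 were left out.

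Genes were matched by symbol, and all 36 with a row passed the filter on low counts. The genes and all other lists were chosen with earlier results of these data known. The rule named all listed genes, and from each other list at most the 6 with the smallest p over 4 against 4 libraries. Serpina1, also named by it, is not described. Tests ran in edgeR 4.0.16 under R 4.3.3. They used TMM scaling, filterByExpr on the 4 groups (16591 genes), a robust quasi-likelihood fit of 1 model for the 4 groups with 4 residual degrees of freedom, and Benjamini-Hochberg adjustment over all genes tested at 0.05. Contrasts were the 4 HCB-labelled against the 4 unexposed libraries, each HCB pair, each atorvastatin pair and the interaction, so all share 1 estimate of the spread. CPM is scaled by TMM, with a prior count of 2 in log values, and TPM was computed from the deposited counts and exonic length. SE is the log2 fold change over the root of edgeR's F. Within-library ratios were tested by an exact permutation over 70 arrangements, adjusted over the 7 ratios computed of 9 planned, since C2 and Mbl2 were not analysed here.

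The labels name separate animals, and 2 replicates of a group differed beyond sampling noise in 58.3% to 74.7% of genes. Alternatives tried were the DESeq2 1.42.0 test, DESeq2 size factors in edgeR, no filter, a filter of 1 CPM in 2 libraries, no robust estimation, halved counts, the libraries of 2 groups alone, a replicate block, each library left out, removal of the pair of libraries with most reads outside exons and, chosen after seeing the data, library size alone. The steps were tested on simulated counts. Promoter sequences are RefSeq's on GRCr8. Python 3.11.15 and version 1.17.8 of data.table handled the tables, and figures drawn with matplotlib 3.10.9.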

Additional observations from a re-analysis of the deposited data

How the results depend on the processing

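No called gene changed direction under any alternative tried, and 10 of the 18 genes called over 4 against 4 libraries passed in all 17 alternatives. Over 4 against 4 libraries the 17 genes called higher became 10 without the pair of libraries with most reads outside exons, 11 with library size alone and 23 with DESeq2. The 1 gene called lower became 2 with DESeq2, 2 without that pair, 6 with library size alone, and 0 with DESeq2 size factors in edgeR, with no filter or with a replicate block. In HCB against Control the 0 genes called lower became 1 with DESeq2 and 4 with library size alone. Of all 16591 genes tested, DESeq2 called 5109 there, 49.11% of these higher, and library size alone called 4311, 24.15% of these higher. Without the pair of libraries with most reads outside exons, the median log2 fold change was 0.21 over the 36 genes and 0 over all genes tested. With all libraries these medians were 0.48 and −0.09. In Atorvastatin plus HCB against Atorvastatin the 14 called higher became 7 with library size alone, and the 0 called lower became 3. Of all 16591 genes tested, library size alone called 5527 there, 14.85% of these higher. Without the pair of libraries with most reads outside exons, the median log2 fold change was 0.48 over the 36 genes and −0.06 over all genes tested. With all libraries these medians were 0.79 and −0.11. With each library left out in turn, the counts ranged over 13 to 22 higher and 0 to 1 lower for 4 against 4 libraries, 2 to 10 higher and 0 to 1 lower for HCB against Control, and 5 to 16 higher and 0 to 0 lower for the pair given atorvastatin. The atorvastatin comparisons and the interaction stayed at 0 in each such fit. A fit that leaves 1 library in a group assumes that it varies like the other groups. The number of calls over all genes shifted in such fits as well. Same-numbered libraries did not deviate together in 5 of the 6 pairs of groups, with correlations of −0.051 to 0.054. For Control with Atorvastatin the correlation was 0.269. In these groups 34 and 35 of the 36 genes were higher in replicate 2, and replicate 1 had more reads outside exons. Whether same-numbered libraries of these groups share a factor was not tested. With the replicate block 17 genes were called higher over 4 against 4 libraries and 8 in HCB against Control. The cause of these shifts was not tested. Halving the counts left 17 higher and 1 lower over 4 against 4 libraries. Labels, fetal liver genes and Y-linked genes cannot be told apart from HCB.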
